A study of Mus musculus with 2 samples.

Results

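The cholesterol synthesis, uptake and efflux genes described here are Abca1, Abcg1, Mylip, Hmgcs1, Insig1, Sqle, Idi1 and Srebf2, 8 of the 28233 genes with a symbol on the arrays. They were chosen by measured values of these same arrays and then found by symbol among all probes other than control probes, which gave 10 probes of 60 bases, with 2 each for Mylip and Srebf2. Because the choice used these values, the levels and ratios below are a description and carry no test. The cells were immortalized mouse embryonic fibroblasts (MEF) of mixed C57BL/6 x B6:129 Ola background. They carried Rosa26ERT2 Cre, a tamoxifen-activated recombinase under the broadly active Rosa26 promoter, and a floxed allele of THOC5, a subunit of the mRNA-processing and export complex THO. Control cells had the same floxed alleles and no tamoxifen, although their genotype label reads wildtype, and THOC5 knockdown cells had received tamoxifen for 2 days according to the label, while the study's methods also describe a shorter exposure followed by growth medium and starvation. Control and knockdown cells were each hybridised to 1 dual-color Agilent array, on which Cy3 marked serum-starved, unstimulated cells and Cy5 marked cells given fetal calf serum (FCS) for 1 h. Array, tamoxifen and loss of THOC5 cannot be told apart with 1 array per condition, and dye and serum cannot be told apart without exchanged dyes. RNA came from whole cultures, so a lower level can mean fewer cells of a type or less RNA per cell, which cannot be told apart either.

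Mammalian cells keep their cholesterol within narrow limits through opposed transcriptional programs. When sterols are scarce, the precursor of SREBP-2 (encoded by Srebf2) leaves the endoplasmic reticulum with its escort SCAP, is cleaved in the Golgi and switches on the enzymes of the mevalonate and sterol pathway, among them Hmgcs1 (HMG-CoA synthase), Idi1 (isopentenyl diphosphate isomerase) and Sqle (squalene epoxidase). INSIG-1, the product of Insig1, holds SCAP back when sterols are plentiful and is itself a target of SREBP. When oxysterols accumulate, the liver X receptors (LXR) raise Abca1 and Abcg1, transporters that move cholesterol out of the cell, and Mylip, a ubiquitin ligase that limits the uptake of lipoprotein cholesterol.

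RefSeq promoter windows (build GRCm38.p6, 250 bases before to 50 after the start) were available here for 6 of the 8 genes and not for Abcg1 or Sqle. They were searched on both strands for an SREBP site (TCACNCCAC), CCAAT and GGGCGG, the cores bound by the common partners NF-Y and Sp1, TGACG, the core of a cyclic AMP response element, and an LXR direct repeat (AGGTCA, 4 bases, AGGTCA, with at most 2 mismatches). The 250 bases before the start are printed for the member with an exact SREBP site (Hmgcs1), for Srebf2 and Insig1, which govern the pathway, and for the LXR target with the lowest level in knockdown cells (Abca1). Capitals mark SREBP sites with at most 1 mismatch and CCAAT, which reads ATTGG where it lies on the other strand.
Hmgcs1: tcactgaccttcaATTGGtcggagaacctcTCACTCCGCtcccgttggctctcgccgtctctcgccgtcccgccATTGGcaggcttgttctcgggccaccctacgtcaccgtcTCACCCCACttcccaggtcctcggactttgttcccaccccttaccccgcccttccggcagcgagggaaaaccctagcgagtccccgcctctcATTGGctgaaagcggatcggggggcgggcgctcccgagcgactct
Srebf2: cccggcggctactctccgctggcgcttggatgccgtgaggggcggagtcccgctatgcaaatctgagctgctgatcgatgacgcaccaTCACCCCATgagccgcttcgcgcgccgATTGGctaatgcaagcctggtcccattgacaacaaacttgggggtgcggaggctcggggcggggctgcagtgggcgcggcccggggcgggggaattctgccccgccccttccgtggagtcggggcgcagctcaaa
Insig1: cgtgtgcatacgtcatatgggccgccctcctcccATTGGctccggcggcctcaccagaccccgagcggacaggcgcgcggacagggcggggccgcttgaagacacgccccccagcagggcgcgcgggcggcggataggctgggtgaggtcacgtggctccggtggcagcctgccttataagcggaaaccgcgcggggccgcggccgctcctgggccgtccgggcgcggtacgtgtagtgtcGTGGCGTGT
Abca1: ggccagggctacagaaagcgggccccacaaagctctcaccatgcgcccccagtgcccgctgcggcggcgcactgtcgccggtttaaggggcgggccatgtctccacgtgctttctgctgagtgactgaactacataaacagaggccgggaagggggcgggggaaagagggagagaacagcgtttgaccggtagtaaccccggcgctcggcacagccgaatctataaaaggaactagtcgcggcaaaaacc
The stretches lie at chr13:119690101-119690350 (+) for Hmgcs1, chr15:82147019-82147268 (+) for Srebf2, chr5:28071162-28071411 (+) for Insig1 and chr4:53159896-53160145 (-) for Abca1. Hmgcs1 held an exact SREBP site from -137 to -129 (TCACCCCAC), counting the last base before the start as -1, a motif found in 1.24% of the 32851 windows of all genes. With 1 mismatch allowed, a share of 24.2% of all windows matched, and so did 4 of the 6 members: Hmgcs1, Srebf2 (-162 to -154), Insig1 (-9 to -1, other strand) and Mylip. CCAAT stood in 5 of 6 members against 37.4% of all windows, and GGGCGG in 6 of 6 against 35.7%. TGACG, in 20.8% of all windows, was found in Hmgcs1, Insig1 and Srebf2. The LXR repeat occurred in 3.02% of windows and in 0 of the 6 members. This says only that no match with at most 2 mismatches lies within these 300 bases. Repeats with more mismatches were not sought, so an LXR site is not excluded in any member, Abca1 included. Motif matches describe the sequence and were not measured as binding.

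In both channels the Thoc5 probe was lower in knockdown cells. It read 4808 (control, unstimulated), 3047 (control, serum), 546 (knockdown, unstimulated) and 455 (knockdown, serum) in units of processed signal, the background-subtracted, dye-normalized intensity. After scaling between arrays its log2 level in knockdown over control cells was -2.83 in unstimulated and -2.43 in serum-treated cells. Whether this probe lies in the deleted part of the gene was not analysed here. Fos, an immediate early gene that serum induces, had log2 serum ratios of 5.71 in control and 6.55 in knockdown cells. Of 43020 spots per array, 62.1% to 64.4% were well above background in each channel and 0 were saturated. Among 231 probes printed as 10 spots, the median SD of the log2 serum ratio was 0.028 on the control and 0.031 on the knockdown array, which measures printing and scanning only. All 8 fibroblast markers were detected in every channel, with summed scaled signals, unstimulated and then serum-treated, of 335108 and 290586 in control and 308956 and 277856 in knockdown cells. Within that list 4 markers read lower in both knockdown channels than in both control channels before scaling: Pdgfra (1269 and 608 against 435 and 386), Col3a1 (45649 and 28734 against 17481 and 14360), Pdgfrb (6360 and 5118 against 3783 and 3407) and, by little, Fn1 (84520 and 84604 against 83033 and 77872). Over all genes the knockdown array also read lower before scaling, with a median log2 of -0.26 unstimulated and -0.25 after serum. How many genes read lower in this way was not counted. The part of these 4 markers in the values below was not tested. Of 5 macrophage markers, which are of interest because macrophages express Abca1 and Abcg1 strongly, 2 to 5 were detected, with summed signals of 6012 and 7805 in control and 8802 and 10216 in knockdown cells. These sums came mainly from Itgam (6314 to 8700 before scaling) and Csf1r (383 to 538), while Emr1, Cd68 and Ptprc stayed between 5.59 and 26.0, and the part of these markers in the values below was not tested. Endothelial markers (3 of 3 detected) summed to 920 to 1031, epithelial markers to 100 to 177 with Cdh1 not detected, and adipocyte markers to 130 to 251 with Adipoq and Plin1 not detected.

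Values are given for the brightest probe of each gene. The first question was how the efflux side stood in unstimulated cells. Abca1, Abcg1 and Mylip were all lower in knockdown than in control cells, by 5.28-fold, 2.86-fold and 2.42-fold. Abca1, which lipidates apolipoprotein A-I at the cell surface, is read by a probe at chr4:53043944-53044003 on the array's own build, mm9. It read 1212 in unstimulated and 708 in serum-treated control cells, and 193 and 204 in knockdown cells. Both knockdown channels lay below both control channels, also after scaling (log2 signals 10.11 and 9.33 in control, 7.7 and 7.79 in knockdown cells). The share of all genes that separate in this way was not counted, here or for Abcg1. After the arrays were scaled to a common intensity distribution, the unstimulated log2 level was -2.40 ± 0.20, and 20 of the 19045 genes measured were lower still. Here and below, ± is the error the scanner software assigns to a spot. For levels and differences the errors of both arrays were combined as the root of their summed squares. It holds no scaling error and no biological replicate.

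Abcg1, which passes cholesterol to HDL particles, has its probe at chr17:31252580-31252639. Its signals were 837 and 480 in control and 244 and 237 in knockdown cells. After scaling the log2 signals were 9.56 and 8.76 in control and 8.05 and 8.0 in knockdown cells, again without overlap between the arrays. The unstimulated log2 level in knockdown over control cells was -1.52 ± 0.20, with 126 genes lower. Mylip, measured at chr13:45506979-45507038, read 1469 and 929 in control and 495 and 602 in knockdown cells. Its log2 level was -1.28 ± 0.20, with 213 genes lower. The other Mylip probe (chr13:45503808-45503867) was dim, at 15.4, 11.8, 3.18 and 4.06, and well above background only in unstimulated control cells, so it gives no measured ratio.

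**Figure D1:**
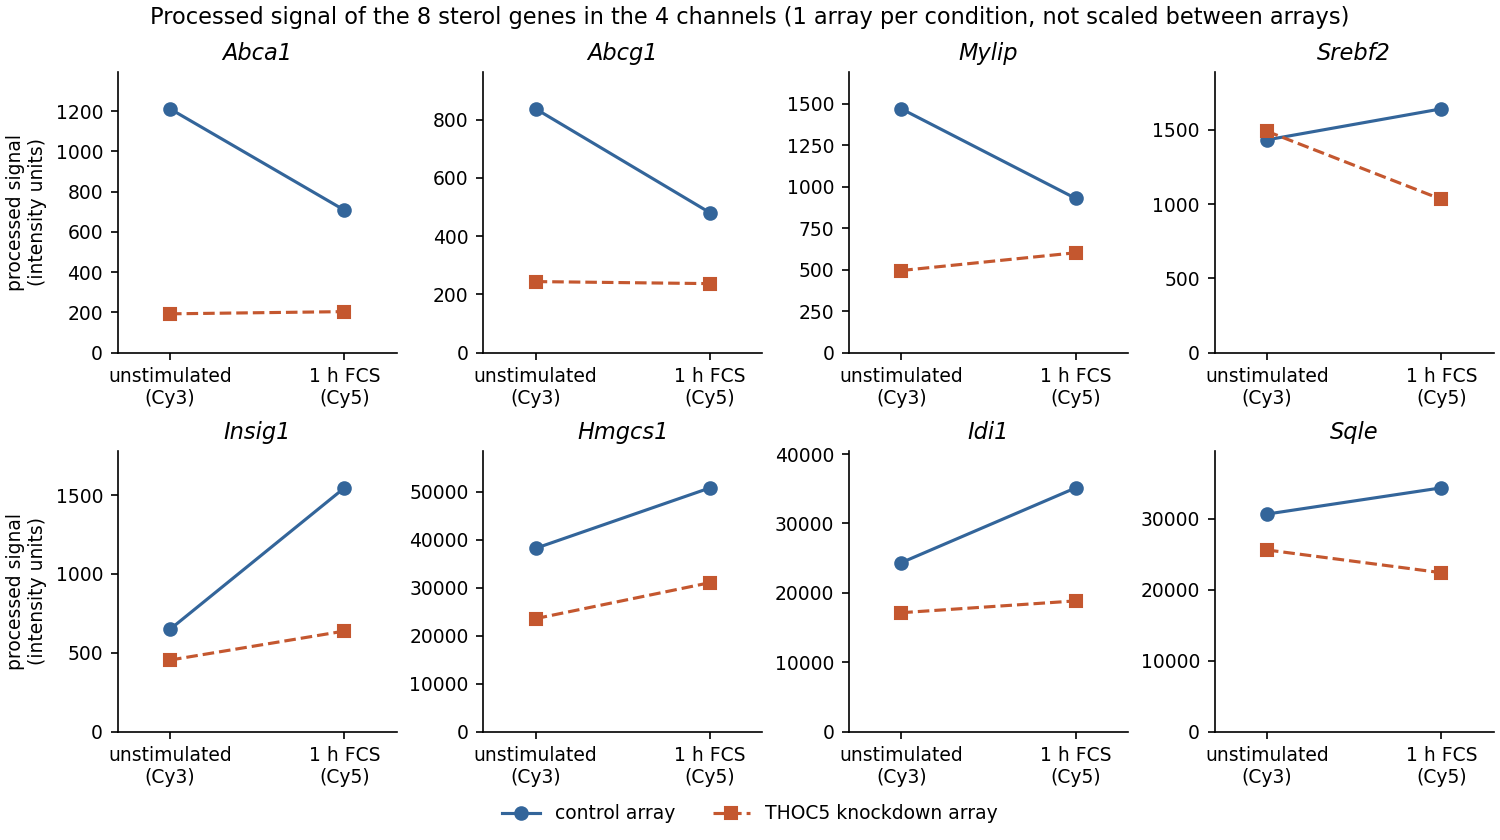
Processed signal (intensity units, linear axis from 0, before scaling between arrays) of the brightest probe of each of the 8 genes in unstimulated (Cy3) and serum-treated (Cy5) cells, with circles and solid lines for the control array and squares and dashed lines for the THOC5 knockdown array; points are single channels without error bars. For Abca1 the control signal goes from 1212 to 708 and the knockdown signal from 193 to 204, while for Insig1 the control signal goes from 649 to 1546 and the knockdown signal from 454 to 638.

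The synthesis side was much closer between unstimulated cells. Srebf2 (chr15:82034765-82034824) read 1432 and 1641 in control and 1490 and 1032 in knockdown cells, with an unstimulated log2 level of 0.38 ± 0.20. The other Srebf2 probe (chr15:82030068-82030127), at 242, 303, 254 and 209, gave 0.28 ± 0.20. Both Srebf2 probes were therefore slightly higher in unstimulated knockdown cells, by 1.30-fold and 1.22-fold. Insig1 (chr5:28404246-28404305) read 649 and 1546 in control and 454 and 638 in knockdown cells, with an unstimulated level of -0.23 ± 0.20. Before serum the Insig1 level thus differed by 1.18-fold between the arrays. Hmgcs1, whose probe is placed on an unassembled piece of the chromosome (chr13_random:114793-114852), read 38239 and 50850 in control and 23572 and 31082 in knockdown cells, a level of -0.44 ± 0.20. Idi1 (chr13:8891524-8891583) read 24348 and 35130 in control against 17139 and 18841 in knockdown cells, a level of -0.23 ± 0.20. Sqle (chr15:59162688-59162747) read 30685 and 34387 in control and 25627 and 22417 in knockdown cells, a level of 0.01 ± 0.20. Hmgcs1, Idi1 and Sqle are all bright probes, and on each the control channels exceeded the knockdown channels before scaling. At that stage the knockdown array read lower over all genes, with a median log2 of -0.26 unstimulated and -0.25 after serum. The share of all genes that separate in this way was not counted.

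Among the 8 genes, 3 were 1.5-fold or more lower in unstimulated knockdown cells and 0 were higher. Over all genes the shares past 1.5-fold were 6.26% lower and 6.21% higher. The member values chose the list, so these shares are given as background. The 8 log2 levels ran from -2.40 to 0.38 with a median of -0.34, while the median of all genes was -0.01. The median was -1.52 over Abca1, Abcg1 and Mylip and -0.23 over the 5 synthesis-side genes. Without any scaling between arrays, which shifts the median of all genes to -0.26, the level of Abca1 read -2.65, and under all 11 alternatives it lay between -2.65 and -2.18.

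The next question was how control cells responded to serum. After 1 h Abca1, Abcg1 and Mylip were each 1.5-fold or more lower, and of the 5 synthesis-side genes Insig1 alone was 1.5-fold or more higher. Insig1 had the largest ratio among the members, with a log2 value of 1.25 ± 0.23, or 2.38-fold higher, and 357 of 18771 genes had a larger one. Idi1 was 0.53 ± 0.21 and Hmgcs1 0.41 ± 0.21, 1.44-fold and 1.33-fold higher. Srebf2 (0.20 ± 0.20) and Sqle (0.16 ± 0.20) lay at or within the software error of 0. Abcg1 was -0.80 ± 0.22, Abca1 -0.78 ± 0.22 and Mylip -0.66 ± 0.21, or 1.74-fold, 1.71-fold and 1.58-fold lower. In control cells 1 member was thus 1.5-fold or more higher, where the background over all genes was 6.72%, and 3 were lower, where it was 5.82%. Mylip was near that limit: the 3 alternatives that changed its value put it inside, at -0.58 (normexp and loess), -0.57 (no dye normalization) and -0.52 (mean of both probes, which draws on the dim probe).

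In knockdown cells 0 of the 8 members were 1.5-fold or more higher after serum and 0 were lower. Over all genes these shares were 3.48% and 1.55%. Insig1 was still the highest, at 0.49 ± 0.21, followed by Hmgcs1 at 0.40 ± 0.21. Mylip was 0.28 ± 0.21, Idi1 0.14 ± 0.20, Abca1 0.08 ± 0.21 and Abcg1 -0.04 ± 0.21. Sqle was -0.19 ± 0.20, and Srebf2 was the lowest at -0.53 ± 0.21, with 364 of 18531 genes lower. The second Srebf2 probe was also below 0, at -0.28 ± 0.21. The sign of the serum ratio was opposite on the 2 arrays for 4 members (Abca1, Mylip, Sqle and Srebf2) and the same for the other 4. The Abca1 and Sqle ratios in knockdown cells lay within the software error of 0, and without dye normalization the Sqle ratio there was 0.12.

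**Figure D2:**
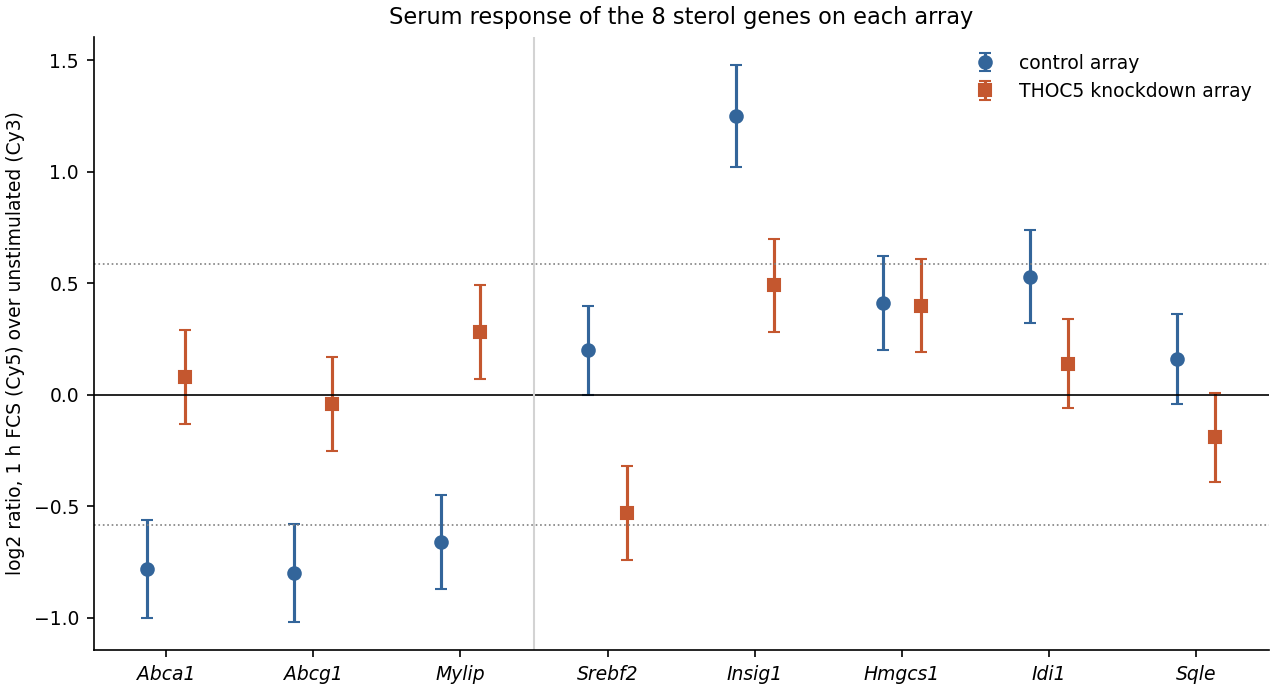
Log2 ratio of serum-treated (Cy5) over unstimulated (Cy3) signal for the 8 genes, circles for the control array and squares for the THOC5 knockdown array; bars are the scanner software's error of a spot, dotted lines mark 1.5-fold, and the vertical line separates the efflux side with Mylip (left) from synthesis and its control (right). Abca1, Abcg1 and Mylip lie between -0.80 and -0.66 in control and between -0.04 and 0.28 in knockdown cells, and Insig1 lies at 1.25 in control and 0.49 in knockdown cells.

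Subtracting the control ratio from the knockdown ratio gave the difference in serum response, which needs no scaling between arrays. It was positive for the 3 efflux-side genes: 0.94 ± 0.30 for Mylip, 0.86 ± 0.30 for Abca1 and 0.76 ± 0.30 for Abcg1. It was below 0 for the 5 others: -0.76 ± 0.31 for Insig1, -0.73 ± 0.29 for Srebf2 (-0.61 ± 0.29 on its second probe), -0.39 ± 0.29 for Idi1, -0.36 ± 0.29 for Sqle and -0.01 ± 0.29 for Hmgcs1. For the efflux-side genes the control reading was lower after serum. In knockdown cells the readings of Abca1 and Abcg1 were low before serum and within the software error of that after it, while Mylip went from 495 to 602, 1.22-fold higher. For Insig1 the reading was higher after serum on both arrays, by 2.38-fold in control and 1.40-fold in knockdown cells. Hmgcs1 had ratios of 1.33-fold and 1.32-fold on the 2 arrays, a difference far below its error. Counted at 1.5-fold, 3 of 8 members were higher (background 4.43%) and 2 were lower (background 4.57%), and at 2-fold 0 were.

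After serum, all 8 members read lower in knockdown than in control cells, and they did so under each of 11 alternatives. The log2 level was -1.54 ± 0.20 for Abca1 (2.92-fold lower), -1.00 ± 0.20 for Insig1 (1.99-fold lower), -0.75 ± 0.21 for Abcg1 (1.69-fold lower) and -0.63 ± 0.20 for Idi1 (1.54-fold lower). These 4 were past 1.5-fold, where the background over all genes was 6.48%, and 0 were higher, where it was 7.22%. Hmgcs1 was at -0.46 ± 0.20, Srebf2 at -0.35 ± 0.20, Sqle at -0.34 ± 0.20 and Mylip at -0.33 ± 0.20. The members' median was -0.54, against 0.00 over all genes. These levels, the unstimulated levels and the difference in serum response share the same 4 signals, since the difference is 1 level ratio minus the other, so they do not support each other.

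**Figure D3:**
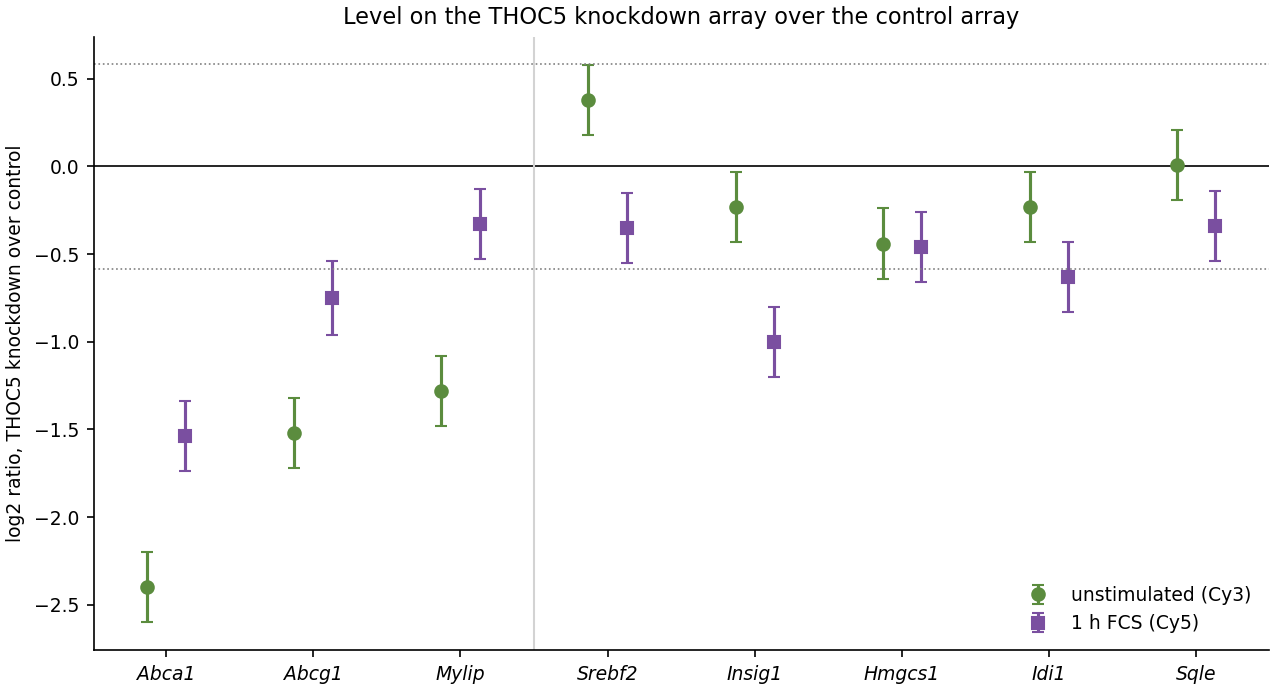
Log2 ratio of the level on the THOC5 knockdown array over the control array after scaling, circles for unstimulated (Cy3) and squares for serum-treated (Cy5) cells. Bars are the scanner software's spot errors combined over both arrays. Dotted lines mark 1.5-fold, and the vertical line separates the efflux side (left) from the synthesis side (right). The unstimulated values of Abca1, Abcg1 and Mylip are -2.40, -1.52 and -1.28, and all 8 serum-treated values lie between -1.54 and -0.33.

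The rest of the pathway was read from lists chosen with earlier results of these data known, and each count is set beside the share of all genes past 1.5-fold. Of 22 enzymes from acetyl-CoA to cholesterol, 4 were 1.5-fold or more higher after serum in control cells and 0 were lower, where the shares of all genes were 6.72% and 5.82%, with a list median of 0.16 against -0.02 over all genes. Without dye normalization 7 enzymes were higher, where the share of all genes was 9.72%. Among them were Cyp51 (0.67), Sc5d (0.67) and Hsd17b7 (0.66), which act on lanosterol and the sterols after it. In knockdown cells 0 of the 22 enzymes were past 1.5-fold in either direction, near the low shares of all genes there (3.48% higher and 1.55% lower), with a median of -0.08 against -0.01 (-0.08 to 0.09 over the alternatives). The difference in serum response was below 0 for 18 of 22, with a median of -0.27. The 2 enzymes past 1.5-fold in that difference, where 4.57% of all genes were lower, were Sc5d (-0.66) and Lss, the lanosterol synthase (-0.63).

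The level of the enzymes in unstimulated knockdown cells had a median of -0.19, and the 2 enzymes past 1.5-fold were the sterol reductase Tm7sf2 (-0.73) and the lanosterol demethylase Cyp51 (-0.71), where 6.26% of all genes were lower (8 of 22 enzymes without scaling between arrays, where 14.0% of all genes were). After serum 21 of 22 enzymes lay below 0, with a median of -0.41. Cyp51 was furthest, at -1.19 with signals of 5168, 8215, 2541 and 2890 in the channel order used above. Dhcr7, the reductase of the last step, was at -0.65 and Idi1 at -0.63, which made 3 of 22 where 6.48% of all genes were lower. That count ranged from 2 (normexp and loess) to 5 (75th percentile scaling) among the alternatives at 1.5-fold that scale the arrays, and was 16 without scaling, where 14.3% of all genes were lower. Acat2, at 0.10, was the enzyme above 0. Hmgcs1, Idi1 and Sqle are themselves counted in this list.

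Of 10 genes for SREBP processing and sterol-regulated degradation, Insig1 was the only one past 1.5-fold after serum in control cells, where the shares of all genes were 6.72% higher and 5.82% lower. The list medians of the 2 serum responses were -0.02 and 0.09. Srebf1, which encodes SREBP-1 and is itself an LXR target, had a log2 level in knockdown over control cells of -0.87 unstimulated and -0.64 after serum (signals 211, 218, 100 and 121). Scap, the escort of the SREBP precursors, was at -0.10 and 0.00, and Insig2 at -0.16 and 0.03. Scap and Insig2 are named for their role next to Insig1 and were picked after their values were seen.

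Of 16 genes for sterol uptake, transport and storage, Soat1, which esterifies cholesterol for storage, was highest after serum in control cells at 0.83. The sterol carrier Stard4 was at 0.65 and its relative Stard5 at -0.71, which read 0.61 in the difference between arrays. Of the 16 genes, 2 were 1.5-fold or more higher after serum in control cells, where 6.72% of all genes were. The 2 lower genes were Stard5 and Mylip, which was chosen on these values, where 5.82% of all genes were lower. With normexp and loess 0 were lower, where 3.18% of all genes were. With the mean of the probes 1 was higher, where 6.52% of all genes were, since the other Stard4 probe read 0.42. Vldlr, a lipoprotein receptor, was higher in serum-treated knockdown cells (0.96), with signals of 2311 and 1935 in control and 2613 and 3036 in knockdown cells. The list median stayed between -0.15 and 0.02 in all 5 comparisons.

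Of 12 LXR receptors and targets, which include Abca1, Abcg1 and Mylip, 4 were 1.5-fold or more lower and 2 higher in unstimulated knockdown cells, where the shares of all genes were 6.26% and 6.21%, with a list median of -0.03. Of the 4 lower genes, Abca1, Abcg1 and Mylip were chosen on these values, and Srebf1 was the other. The 2 higher genes were Apoe and Nr1h3, both at 0.64. The number lower was also 4 with normexp and loess, where 3.0% of all genes were lower, and without scaling between arrays, where 14.0% were. The number higher was 0 under both, where 3.13% and 3.75% of all genes were higher. Apoe, a secreted lipoprotein component, read 253 and 787 in control and 331 and 546 in knockdown cells, and its log2 serum ratios of 1.64 and 0.72 opposed those of Abca1 and Abcg1 in control cells. The transporter Abcg4 was at 0.71 after serum in control cells. Nr1h3, the gene of LXR alpha, was 0.76 higher on the log2 scale in serum-treated knockdown cells, at low signals of 52.5 to 83.7. With normexp and loess 0 genes of this list were 1.5-fold or more higher there, where 3.87% of all genes were. The related Nr1h2 (LXR beta), named after its values were seen, was at 0.12 and 0.16 in the 2 levels.

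**Figure D4:**
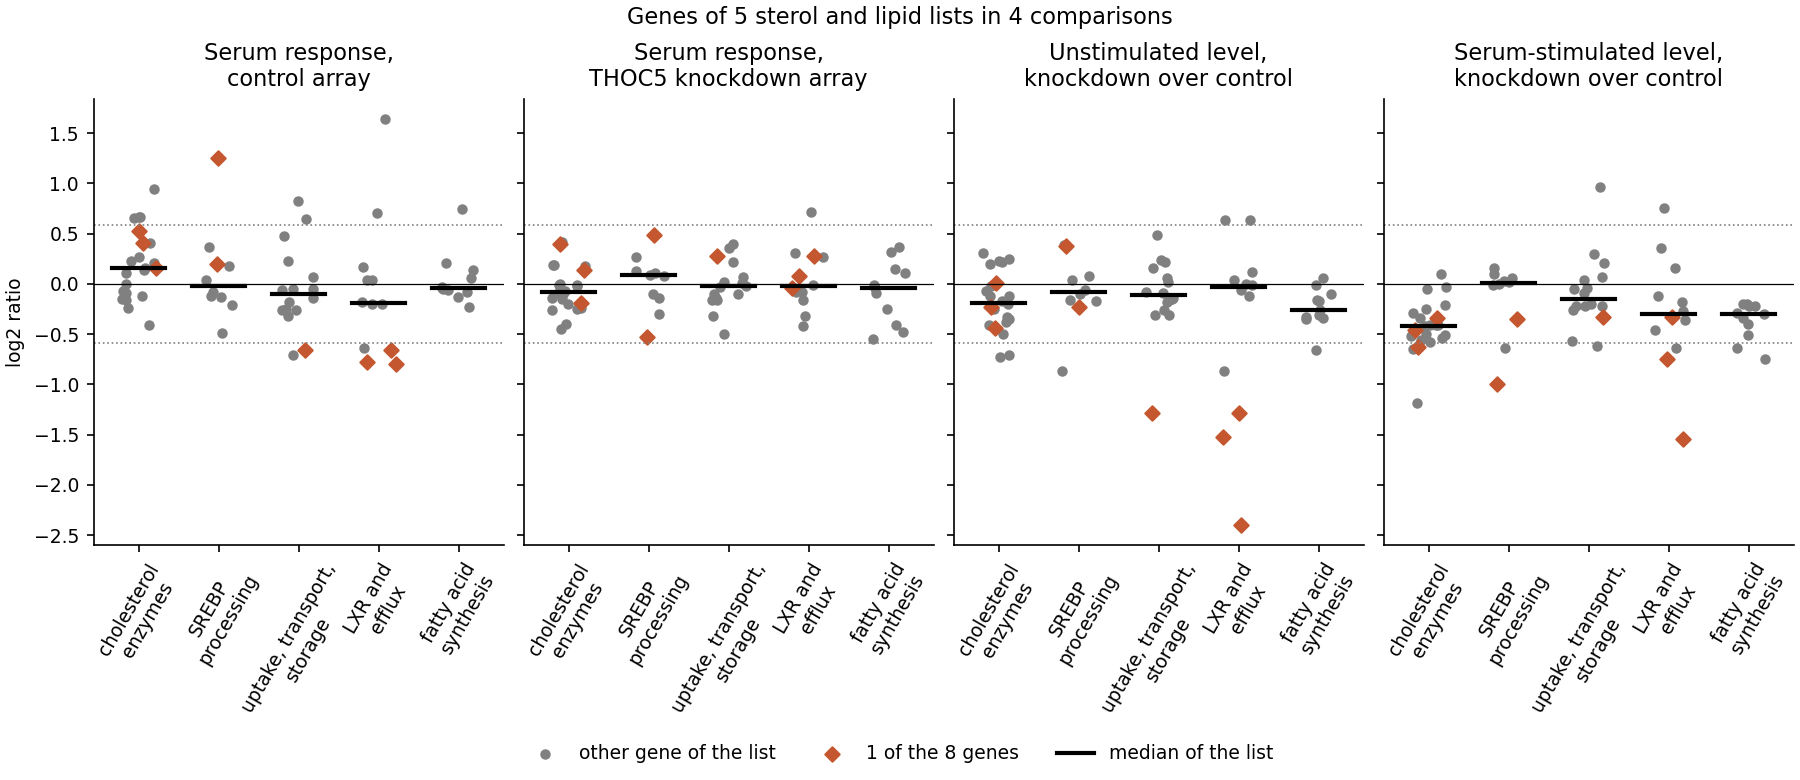
Log2 ratios of every gene of 5 sterol and lipid gene lists in 4 comparisons, with grey points for single genes, diamonds for the 8 genes described here, black bars for list medians and dotted lines at 1.5-fold; Mylip and Srebf1 stand in more than 1 list, and the horizontal scatter has no meaning. In unstimulated cells Abca1, Abcg1 and Mylip lie below every other point, and after serum the median of the 22 cholesterol enzymes is -0.41.

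The genes most like each member were sought over 3 values (both serum log2 ratios and the unstimulated log2 level) by Euclidean distance among 17200 genes detected in every channel. Nearest to Abca1 were Cdhr1 (0.472), Stxbp5 (0.479) and Thoc5 itself (0.56), which had values of -0.66, -0.26 and -2.83. Abcg1 was nearest to D0H4S114 (0.0835), Igsf10 (0.17) and Impg2 (0.211), and Mylip to Rgs2 (0.0615), Serpinb1c (0.108) and Srpx (0.129). Insig1 was nearest to Mier3 (0.103), Lyl1 (0.111) and Rrad (0.112). The 3 distances of Abca1 exceeded those of the 7 other members. The nearest genes were Tlr2 (0.0311), 4930455D15Rik (0.0386) and Tmprss11f (0.0664) for Hmgcs1, and Rhbdl1 (0.0115), Cops7b (0.0266) and Mrpl37 (0.0307) for Sqle. Idi1 was nearest to Map2k4 (0.02), Ube2f (0.0655) and Abcb4 (0.0661), and Srebf2 to E030042N06Rik (0.0846), 4731420N21 (0.0852) and Mdfi (0.0915).

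Gapdh, a common reference gene, read 94341 and 87891 in control and 97737 and 89641 in knockdown cells on its brightest probe, with log2 levels in knockdown over control cells of 0.11 unstimulated and 0.09 after serum. Its 6 other probes read higher, from 0.29 to 0.48 unstimulated and from 0.13 to 0.35 after serum, a spread that bears on any member level of that size. Actb read 106836 and 159711 against 121555 and 156017, with log2 serum ratios of 0.58 and 0.36 and levels of 0.20 and -0.02.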

How the data were processed

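Total RNA of the 4 samples was labelled with Cy3 or Cy5 and read on 2 dual-color arrays. The authors deposited the scanner text output (Agilent Feature Extraction 10.7.3.1), which places probes on mm9. Per the file headers, processed signals are intensity values after background subtraction and linear and LOWESS dye normalization within each array, and were not scaled between arrays. The deposited log10 ratio (Cy5 over Cy3) has p-values beside it, which were not used. A deposited table of log10 values for the series held 0 negative values, so it carries no direction, and it served as an alternative for serum ratios with the scanner's sign. The number of columns not mapped to a sample is 0.

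The members and lists were chosen with earlier results of these data known. Outlier spots (239 and 234) were left out and spots of a probe averaged as log2 values computed from the authors' intensities. Each gene was read from its brightest probe over 4 channels and counted if well above background in a channel of the comparison. Serum ratios used signals as deposited. Levels between arrays used limma 3.58.1 (Aquantile), which gives both arrays the same distribution of average intensity and keeps each ratio. Called means 1.5-fold or more. No p-value is given, because there is 1 array per condition. Named genes are all members, list genes past 1.5-fold (at most the 4 largest per list and comparison), Thoc5, Fos, Gapdh, Actb and nearest neighbours, with exceptions marked. Some list genes that the rule names are not reported here. Alternatives were normexp (offset 50) with loess, no dye normalization, outlier spots kept, the mean of a gene's probes, a 2-fold limit, stricter detection, signals above 200, a floor of 50, other scalings between arrays (75th percentile, median, quantile, none) and equal spreads of the log ratios. In simulated data for unstimulated levels over 19044 genes, 100 of 100 genes changed 2-fold and 100 of 100 changed 4-fold were recovered, with 1 unchanged gene called. The simulated channels shared a common profile with small random noise and no variation between cultures. The changed genes were picked among those detected in every channel. The recovery thus checks the calculation and says nothing about the rate of false calls on these arrays. R 4.3.3 and Python 3.11.15 (numpy 2.4.6, pandas 2.3.3, matplotlib 3.10.9) were used. Promoter sequences are from RefSeq (GRCm38.p6).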

Additional observations from a re-analysis of the deposited data

How the results depend on the processing

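Of 376 member values under the alternatives, 225 equalled the value given at 2 decimals, many because the setting cannot alter a bright probe. Of the 151 that changed, 126 stayed within the software error, 25 moved beyond it, and 0 of the values past 1.5-fold changed sign. Without dye normalization, 3 members were 1.5-fold or more higher after serum in control cells (1 with it), where the share of all genes went from 6.72% to 9.72%, and 1 in knockdown cells (0 with it), where it went from 3.48% to 5.32%. The bright probes moved: Hmgcs1 then read 0.83 and 0.71, Idi1 0.88 and 0.38, and Sqle 0.55 and 0.12. At a 2-fold limit, 0 members were lower after serum in control cells (3 at 1.5-fold), 0 were higher in the difference in serum response (3) and 0 lower (2), and 1 was lower after serum in knockdown over control cells (4). The shares of all genes past 2-fold were 1.73%, 0.928%, 1.33% and 2.24% in the same order. With the log ratios of both arrays brought to 1 spread (0.307 on the control and 0.218 on the knockdown array as deposited), 1 member was lower in the difference (2), where the share of all genes was 4.25%, since Insig1 then read -0.48. Without scaling between arrays, 8 members were 1.5-fold or more lower after serum (4 with it), while the share of all genes went from 6.48% to 14.3%, a setting that moves the median of all genes to -0.25. The unstimulated levels of Abca1, Abcg1 and Mylip stayed past 1.5-fold under all 11 alternatives, from -2.65 to -2.18, -1.78 to -1.43 and -1.69 to -1.19, where -1.69 is the mean with the dim Mylip probe. No paired analysis was possible because each condition has 1 array. With 1 array there is no replicate to leave out, and the software error covers a spot, not a culture.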

Other observations

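Fatty acid synthesis, which SREBP-1 drives in parallel, was read from a list of 11 genes. In serum-treated cells the log2 level in knockdown over control cells was below 0 for 11 of 11, from -0.75 to -0.20, with a median of -0.30 against 0.00 over all genes, and 2 of 11 were past 1.5-fold, where 6.48% of all genes were lower. These were Elovl6, which lengthens palmitate (-0.75, signals 5950, 5637, 3715 and 2668 for control unstimulated, control serum, knockdown unstimulated and knockdown serum), and Fasn, the fatty acid synthase (-0.64, signals 974, 1633, 668 and 862). In unstimulated cells 10 of 11 values were below 0, from -0.66 to -0.01, with a median of -0.26 against -0.01 over all genes, and Acss2, which makes acetyl-CoA from acetate, was the member of the list past 1.5-fold (-0.66), where 6.26% of all genes were lower. With the mean of its probes Acss2 was no longer past it, leaving 0 of 11, and without scaling between arrays the count was 5 of 11, where 14.0% of all genes were lower. In serum-treated cells the count without scaling was 7 of 11, where 14.3% of all genes were lower. The median stayed below 0 under all alternatives tried, from -0.61 to -0.30 after serum and from -0.55 to -0.21 before it. The median log2 serum ratio was -0.04 in both control and knockdown cells, but 0.14 and 0.19 without dye normalization, so its sign is not settled, and Fasn alone was 1.5-fold or more higher in control cells (0.75), where 6.72% of all genes were. These counts compare 1 array with 1 array and carry no test.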
